A study of Mus musculus with 4 samples.

Results

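Zfp genes code for zinc finger proteins, and the Zeb1 peaks assigned to them are described here. The members are the rows of the deposited peak list whose gene symbol is Zfp followed by digits and at most 1 final letter, with Zfp42 left out. They are 284 of 17435 peaks and carry 201 gene symbols. The cells were the established mESC line mES-D3, grown without feeders in GS, which is NDiff N2B27 supplemented with PD0325901 (1 μM, against MEK), CHIR99021 (3 μM, against GSK-3) and LIF (20 ng/mL). For ChIP-seq, in which an antibody recovers the DNA bound by a protein, chromatin was fixed in 1% formaldehyde, sheared to about 200 bp and incubated with 8 μg of Zeb1 antibody. There were 3 Zeb1 ChIP libraries and 1 input library, all from GS, so the list holds no contrast between conditions. For each peak the authors give treatment reads, input reads and enrichment, which is the treatment to input ratio scaled by mapped reads, all as means over libraries. No value per library accompanies them, so no SD can be given, and although the authors drew an equal number of reads from every sample before alignment, the number of aligned reads behind the values is unknown from the list. No test was made between groups of peaks or genes, which are not replicates, and the intervals of shares are 95% Wilson intervals for counting error only.

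Most zinc finger proteins of this name carry arrays of C2H2 fingers, in which paired cysteines and histidines hold a zinc ion and residues of the alpha helix read DNA. Many also carry a KRAB domain, which recruits Trim28 and through it histone and DNA methylation, and such genes lie in clusters of near copies and are known in embryonic stem cells for silencing retroelements and guarding imprinted loci. Members without a KRAB domain are more diverse and include developmental regulators, architectural factors and RNA-binding proteins. Zeb1 is itself a zinc finger repressor that binds DNA at E-box sequences.

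Promoter sequences are shown first because 175 of the 284 peaks lay within 5 kb of the TSS. The windows are stretches of 100 bases upstream of the TSS that lie wholly inside a peak and hold no annotated exon, from the RefSeq promoter table for GRCm38.p6, written 5′ to 3′ in the direction of the gene. Capitals mark a Zeb1 motif, taken as CNCACCTG, CNTACCTG, TNCACCTG or TNTACCTG on either strand, of which those with CAC contain the core CACCTG. They are the windows with a motif and the highest enrichment among KRAB genes (Zfp53 and Zfp287) and among other genes (Zfp319 and Zfp263), and those of Zfp143 and Zfp335 from the lists by role. The last pair, Zfp619 and Zfp771, have the highest enrichment among windows without a match. Zfp53, Zfp287, Zfp263, Zfp619 and Zfp771 were chosen after their values were seen.
Zfp53, chr17:21488765-21488864, plus strand: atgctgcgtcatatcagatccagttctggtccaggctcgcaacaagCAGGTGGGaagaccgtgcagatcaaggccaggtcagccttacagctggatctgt
Zfp287, chr11:62732016-62732115, minus strand: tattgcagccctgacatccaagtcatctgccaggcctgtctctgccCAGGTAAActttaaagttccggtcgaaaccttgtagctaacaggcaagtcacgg
Zfp319, chr8:95331962-95332061, minus strand: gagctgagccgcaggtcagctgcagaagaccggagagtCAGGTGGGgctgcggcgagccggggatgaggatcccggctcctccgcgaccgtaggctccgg
Zfp263, chr16:3743887-3743986, plus strand: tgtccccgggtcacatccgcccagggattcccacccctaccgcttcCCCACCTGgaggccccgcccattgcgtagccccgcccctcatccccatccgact
Zfp143, chr7:110061452-110061551, plus strand: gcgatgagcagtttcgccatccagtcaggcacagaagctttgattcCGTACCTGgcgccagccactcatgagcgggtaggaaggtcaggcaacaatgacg
Zfp335, chr2:164911901-164912000, minus strand: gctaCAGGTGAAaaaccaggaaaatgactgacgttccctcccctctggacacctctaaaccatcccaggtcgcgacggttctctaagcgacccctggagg
Zfp619, chr7:39517666-39517765, plus strand: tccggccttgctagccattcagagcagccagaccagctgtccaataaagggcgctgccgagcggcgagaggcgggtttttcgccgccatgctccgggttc
Zfp771, chr7:127244426-127244525, plus strand: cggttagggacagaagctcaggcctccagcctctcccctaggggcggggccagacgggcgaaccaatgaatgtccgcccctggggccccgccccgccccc
The peaks over these windows had enrichments of 8.4 at Zfp53, 7.86 at Zfp287, 13.7 at Zfp319, 10.4 at Zfp263, 7.94 at Zfp143 and 6.8 at Zfp335. The windows of Zfp619 and Zfp771, which hold no motif, lay in peaks with enrichments of 11.4 and 11.9. A match is a description of the letters only. The promoter table held 400 windows of 300 bases for 330 Zfp symbols, and 47 of them contained the motif (11.8%, interval 8.95 to 15.3%). Among all 32851 windows of this length the share was 16.9%. It was 12.6% in the 175 windows of Zfp genes with a peak within 5 kb and 11.1% in the 225 windows of those without.

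Coding sequence for the fingers themselves also lay under peaks. The next sequences code for 1 finger of each array, near its middle except in Zfp629. They run from the first cysteine to the last histidine of the finger. Capitals mark the codons of the paired cysteines and histidines that hold the zinc ion. Zfp853, Zfp777, Zfp629 and Zfp775 had the highest enrichments over this part of the gene. None of the 7 genes in the list of KRAB silencers had a peak there, as few KRAB genes did: 10 of 240 Zfp genes with the domain (4.17%), against 18.9% of all coding genes with finger arrays. Zfp932, Zfp445 and Zfp568 are shown as those with the lowest, the median and the highest GC content of their arrays. Zfp853, Zfp629 and Zfp775 were chosen after their values were seen.
Zfp853, chr5:143287974-143288036, minus strand, finger 3 of 5: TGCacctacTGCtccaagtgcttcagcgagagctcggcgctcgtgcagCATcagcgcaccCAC
Zfp777, chr6:48025067-48025129, minus strand, finger 4 of 9: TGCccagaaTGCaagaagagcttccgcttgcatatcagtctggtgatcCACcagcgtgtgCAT
Zfp629, chr7:127611115-127611177, minus strand, finger 13 of 19: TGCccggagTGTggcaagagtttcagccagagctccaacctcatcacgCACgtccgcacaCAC
Zfp775, chr6:48620118-48620180, plus strand, finger 7 of 12: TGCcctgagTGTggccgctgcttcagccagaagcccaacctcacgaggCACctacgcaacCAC
Zfp932, chr5:110009341-110009403, plus strand, finger 8 of 15: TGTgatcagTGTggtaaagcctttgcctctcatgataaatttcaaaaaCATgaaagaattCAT
Zfp445, chr9:122852655-122852717, minus strand, finger 7 of 12: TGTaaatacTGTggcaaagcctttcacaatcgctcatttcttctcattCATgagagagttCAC
Zfp568, chr7:30023144-30023206, plus strand, finger 6 of 11: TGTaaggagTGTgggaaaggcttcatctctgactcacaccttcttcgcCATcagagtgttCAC
The fingers of the first 4 genes lay inside peaks with enrichments of 14.1, 13.0, 12.6 and 12.3. GC content over the whole array was 65.2% in Zfp853, 60.2% in Zfp777, 58.5% in Zfp629 and 62.7% in Zfp775. It was 35.4% in Zfp932, 41.8% in Zfp445 and 53.3% in Zfp568.

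Zeb1 peaks of Zfp genes were placed along the genes much as the list as a whole. Of the 284 peaks, 175 (61.6%, interval 55.8 to 67.1%) lay within 5 kb of the TSS of the assigned gene, against 61.4% of all peaks. Within 1 kb lay 150, or 52.8%, against 52.2% of all peaks, and 105 peaks were centred in the first 500 bp downstream of the TSS (37%, against 34.5% of all peaks) and 36 in the 500 bp upstream (12.7%, against 11.2%). By the reference annotation, 53 peak centres fell in a 5′ UTR (18.7%, against 17.2% of all peaks), 50 in coding sequence (17.6% against 19.7%) and 87 in introns (30.6% against 30.3%). The 3000 bp upstream of a TSS held 33 (11.6% against 9.66%), and 57 lay between genes (20.1% against 20.4%). A single centre fell in a 3′ UTR (0.352%), against 1.62% of all peaks. Most genes had few peaks: 144 of 201 had 1 peak, 38 had 2, 15 had 3, 2 had 4, and Zfp369 and Zfp423 had 5 and 6.

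Median enrichment of Zfp peaks was 6.0 (quartiles 4.63 and 7.96), against 6.5 for all peaks, and 34 of them (12%) reached 10, against 14.7% of all peaks. The median peak was 1700 bp long with 45.9 treatment and 17.5 input reads, against 1850 bp, 47.4 and 16 in the whole list. Per kb of peak, the medians were 26.5 treatment reads against 25.1, and 9.42 input reads against 8.07. Both medians per kb were thus higher in Zfp peaks, while the median ratio was lower. Median GC content was 54.2% in Zfp peaks and 55.5% in all peaks. Across the 284 peaks treatment reads rose with length (Spearman's rho 0.707, against 0.668 over all peaks). Enrichment fell with input reads (rho -0.378, against -0.457 over all peaks), which are the denominator of the ratio itself. Both values are descriptions of peaks that share the same libraries.

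**Figure D1:**
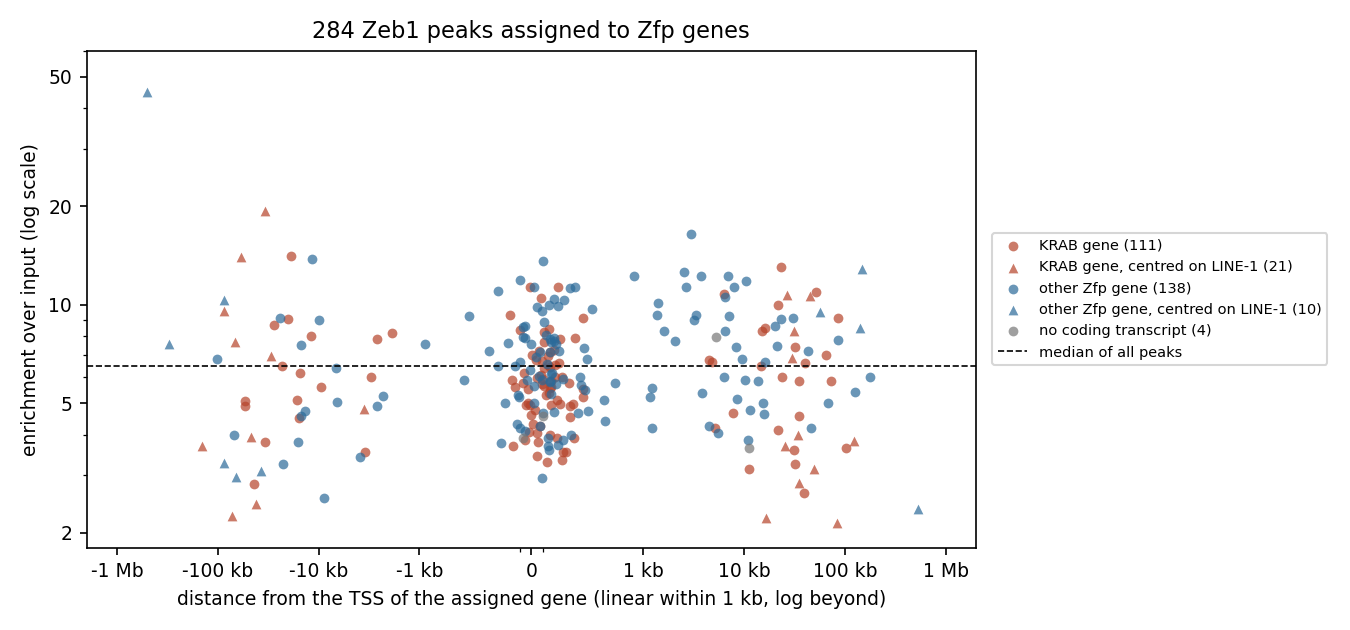
Enrichment over input (log scale) of the 284 Zfp peaks against distance from the TSS of the assigned gene, negative upstream, with KRAB genes in red, other Zfp genes in blue and LINE-1 elements as triangles. Most points sit near the TSS around the median of all peaks (dashed, 6.5), and the highest point, at 44.7, belongs to Zfp462 and lies 500470 bp upstream.

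Among the genes themselves, those with a KRAB domain had a lower share with a promoter peak than those without. The reference annotation holds 394 Zfp genes by the same rule, and 168 of them (42.6%, interval 37.9 to 47.6%) had an assigned peak within 5 kb of the TSS, called a promoter peak below, against 45.1% of all 21000 protein-coding genes. A profile of the KRAB domain found it in 241 of the 391 Zfp genes with a coding transcript. Of these, 76 (31.5%, interval 26.0 to 37.7%) had a peak within 5 kb, against 90 of 150 genes without the domain (60%, interval 52.0 to 67.5%). The difference was -28.5 percentage points (interval -37.8 to -18.4). Here and below, genes without the domain are those without a match to the profile, so a KRAB domain that it missed would be counted among them. The profile replaced a plain sequence pattern after values under that pattern had been seen, because the pattern missed known KRAB genes. With the plain pattern, which found 163 of the 241, the difference was -17.0 points. The highest promoter peak of a gene had a median enrichment of 5.76 over the 76 KRAB genes and 6.73 over the 90 others, a difference of -0.97 (order-statistic interval -1.95 to -0.118). All peaks within 5 kb had a median enrichment of 5.73 in KRAB genes and 6.51 in other Zfp genes. Their medians per kb were 28.1 treatment and 10.4 input reads in KRAB genes and 27.5 and 8.69 in other Zfp genes. The lower ratio thus stood beside higher input and similar treatment reads per kb. Per peak, both were lower in KRAB genes, with 43.8 treatment and 16.2 input reads against 55.5 and 19. Promoter peaks of KRAB genes were 1500 bp long at the median and those of other Zfp genes 1950 bp.

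KRAB genes have many near copies, and the authors kept unique alignments only, so the uniqueness of the sequence was measured after the values had been seen. In 1000 bases around the TSS, the share of 50-base words found once in the genome was at least 90% in 172 of 241 KRAB genes and in 148 of 150 other Zfp genes. Of the 69 KRAB genes under 90%, 5 (7.25%) had a promoter peak. Of the 172 at or over 90%, 71 (41.3%) had one, against 90 of 148 other genes (60.8%), so that the difference among genes with mostly unique sequence was -19.5 points (interval -29.8 to -8.55). The difference in median enrichment among these genes was -0.829 (order-statistic interval -1.79 to 0.0783). CpG content moved with the result as well. The observed over expected CpG ratio in 300 bases at the TSS had a median of 0.524 in KRAB genes, 0.753 in other Zfp genes and 0.595 in all coding genes. With a ratio under 0.4, 9 of 64 KRAB genes (14.1%) and 7 of 20 other Zfp genes (35%) had a promoter peak, against 13.3% of all coding genes in that class. From 0.4 to 0.6 these were 20 of 73 (27.4%) and 9 of 20 (45%), against 46.2%. From 0.6 to 0.8 they were 29 of 69 and 30 of 45 (66.7%), against 66.3%, and from 0.8 upward 18 of 35 (51.4%) and 44 of 65 (67.7%), against 70.2%. KRAB genes thus stood near all coding genes in the lowest class and under them in the upper classes, where the other Zfp genes stood near them. The part of unique sequence and of CpG content in the difference was not tested.

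**Figure D2:**
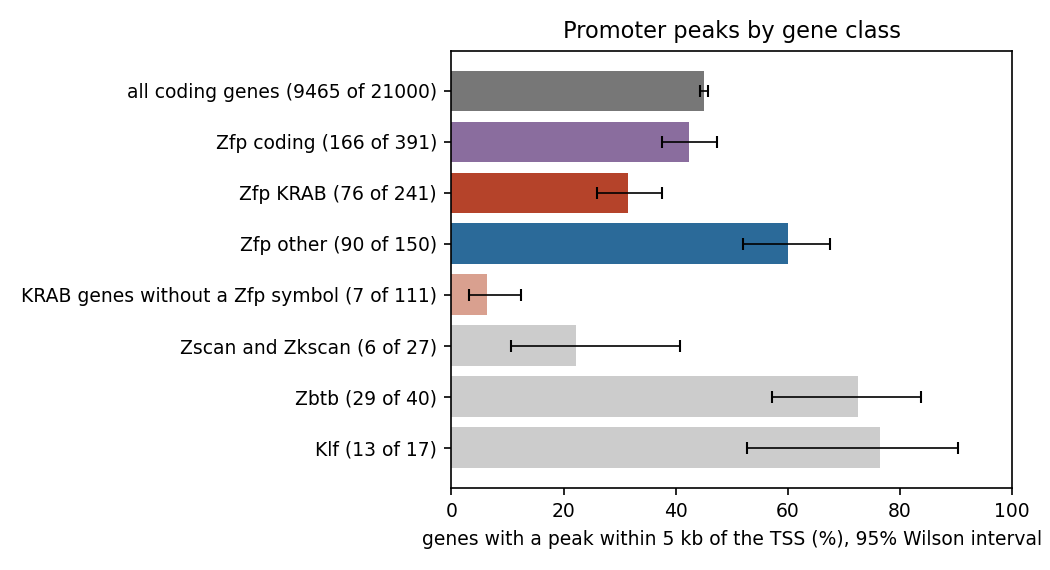
Percent of genes with a Zeb1 peak within 5 kb of the TSS by gene class, with 95% Wilson intervals for counting error and the number of genes beside each name. KRAB genes with a Zfp symbol stand at 31.5% and the other Zfp genes at 60%, on either side of all coding genes at 45.1%.

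Shares of other KRAB genes and other zinc finger families lay both below and above those of the Zfp classes. Of 111 KRAB genes without a Zfp symbol, 7 (6.31%, interval 3.09 to 12.4%) had a promoter peak, and the median share of unique 50-base words at their TSS was 74.8%. Genes of the families below were not left out of this group, and 82 of the 111 had at least 2 matches of the finger pattern. By their own TSS near any peak centre, whatever gene the peak was assigned to, the count for these genes was 16 of 111 (14.4%). The share by this definition was 51.5% of all coding genes, 34.0% of KRAB genes with a Zfp symbol and 68% of other Zfp genes. Of the Zscan and Zkscan genes, which carry a SCAN domain, 6 of 27 had a promoter peak by the deposited assignment (22.2%). Zbtb genes, whose fingers follow a BTB domain, had one in 29 of 40 (72.5%), and Klf genes in 13 of 17 (76.5%). The median enrichment of all peaks was 6.25 for Zbtb, 6.78 for Zscan and Zkscan and 7.49 for Klf genes, from 48, 13 and 24 peaks.

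Peaks also lay over finger-coding sequence, more often in genes without a KRAB domain than in KRAB genes. Of 368 Zfp genes with at least 2 matches of the finger pattern, 51 (13.9%, interval 10.7 to 17.8%) had a peak that overlapped the coding sequence from the first to the last finger. In all 663 coding genes with such an array the share was 18.9%. Split by domain, it was 10 of 240 KRAB genes (4.17%, interval 2.28 to 7.5%) and 41 of 128 others (32%, interval 24.6 to 40.5%). This comparison was chosen after the values were seen. With the peak centre required inside the finger-coding sequence, 30 of 368 genes (8.15%) remained.

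Peaks over fingers followed the GC content of the array. Among genes without a KRAB domain, a peak lay over the fingers in 0 of 25 with GC under 45%, 1 of 19 from 45 to 50%, 5 of 28 from 50 to 55%, 11 of 29 from 55 to 60% and 24 of 27 (88.9%) at 60% or more. In KRAB genes it lay over 0 of 158, 0 of 38, 0 of 20, 2 of 13 and 8 of 11 (72.7%) in the same classes. Of the 240 KRAB genes, 158 thus belonged to the class with the lowest GC, and the median GC of the array was 41.7% in KRAB and 54.0% in other Zfp genes. Sequence uniqueness differed as well: the share of unique 50-base words was at least 90% in 161 of 240 KRAB arrays, 10 of which had a peak, and in 125 of 128 others, 40 of which had one. The part of GC content and uniqueness in the difference between the classes was not tested.

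**Figure D3:**
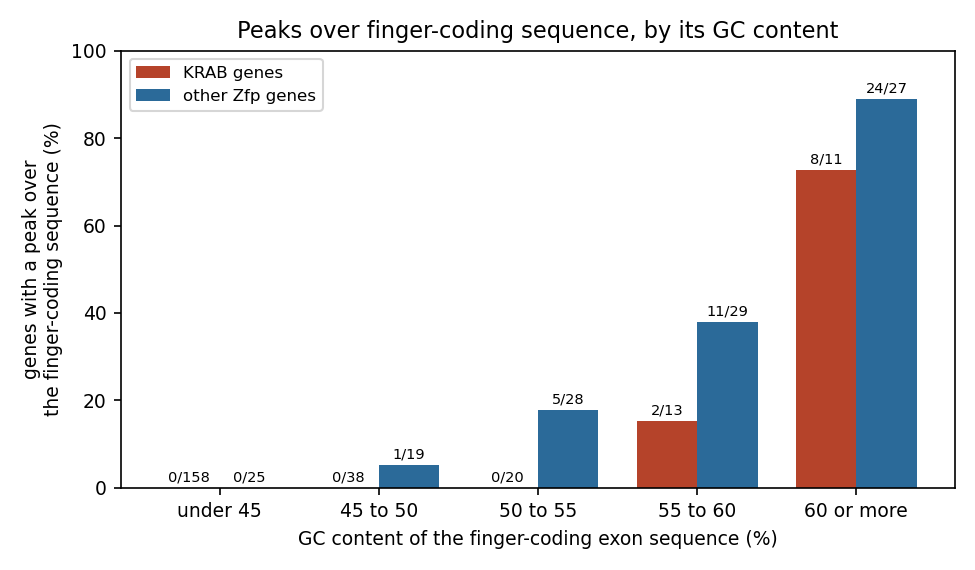
Percent of Zfp genes with a Zeb1 peak over their finger-coding sequence, by the GC content of that sequence, for KRAB genes and other Zfp genes, with genes with a peak over all genes of the class above each bar. In the class of 60% GC or more, 24 of 27 other genes and 8 of 11 KRAB genes had such a peak, and under 45% there were none among 25 and 158.

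Of the Zfp peaks, 31 lay over the finger-coding sequence of the gene they were assigned to, 16 of them more than 5 kb from its TSS. They had a median enrichment of 7.74 and a median length of 2300 bp, and 30 of the 31 contained the Zeb1 motif, against 80.2% of all peaks of 1900 to 2350 bp and 90.6% of longer ones. The peak of Zfp777, a KRAB gene, at chr6:48023901-48026150 lay in coding sequence 23089 bp downstream of the TSS with 126 treatment and 20.7 input reads, whereas its promoter peak had an enrichment of 3.85. Zfp319 had a peak over its fingers with 199 treatment reads and an enrichment of 9.3, beside the peak at its TSS with 13.7. Both lay within 5 kb of the TSS and so count as promoter peaks. Zfp651 had a single broad peak of 6050 bp that took in its fingers, with 208 treatment reads and an enrichment of 8.33. Gene assignment crossed neighbours here: the peak listed for Zfp784, with 223 treatment reads, covered the fingers of Zfp865, and the peak listed for Zfp316, with an enrichment of 14.1, covered those of Zfp853. In the whole set, the TSS nearest to the peak centre was that of the assigned gene for 257 peaks, of another Zfp gene for 2 and of a gene of another name for 25.

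Zfp genes lay in clusters that differed in how many members had a peak. Runs of at least 5 Zfp genes with gaps of at most 200 kb formed 16 clusters with 151 genes, of which 128 were KRAB genes. In the cluster from Zfp712 to Zfp273 on chr13, 1 of 23 genes had a promoter peak, and in the clusters from Zfp978 to Zfp933 on chr4 and from Zfp607b to Zfp850 on chr7 there were 0 of 9 and 0 of 8 by the deposited assignment. In each of these last clusters 1 gene, Zfp982 and Zfp607b, had its TSS inside a peak assigned to another gene, with enrichments of 2.25 and 16.5. Sequence at the TSS was at least 90% unique in 19 of the 23 genes on chr13 and in 6 of the 8 on chr7, but in 1 of the 9 on chr4. In contrast, all 5 genes had one in each of the clusters from Zfp868 to Zfp866 on chr8, from Zfp560 to Zfp846 on chr9 and from Zfp653 to Zfp810 on chr9, of which 5, 5 and 4 were KRAB genes. In the cluster from Zfp553 to Zfp629 on chr7, with 4 KRAB genes, 7 of 8 had a promoter peak with a median enrichment of 9.73. Over all clusters, 39 of 128 KRAB genes (30.5%) had a promoter peak, against 37 of 113 outside clusters (32.7%), so the share differed little by clustering. The clusters were named by their first and last gene, and those given here were chosen after their values were seen.

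**Figure D4:**
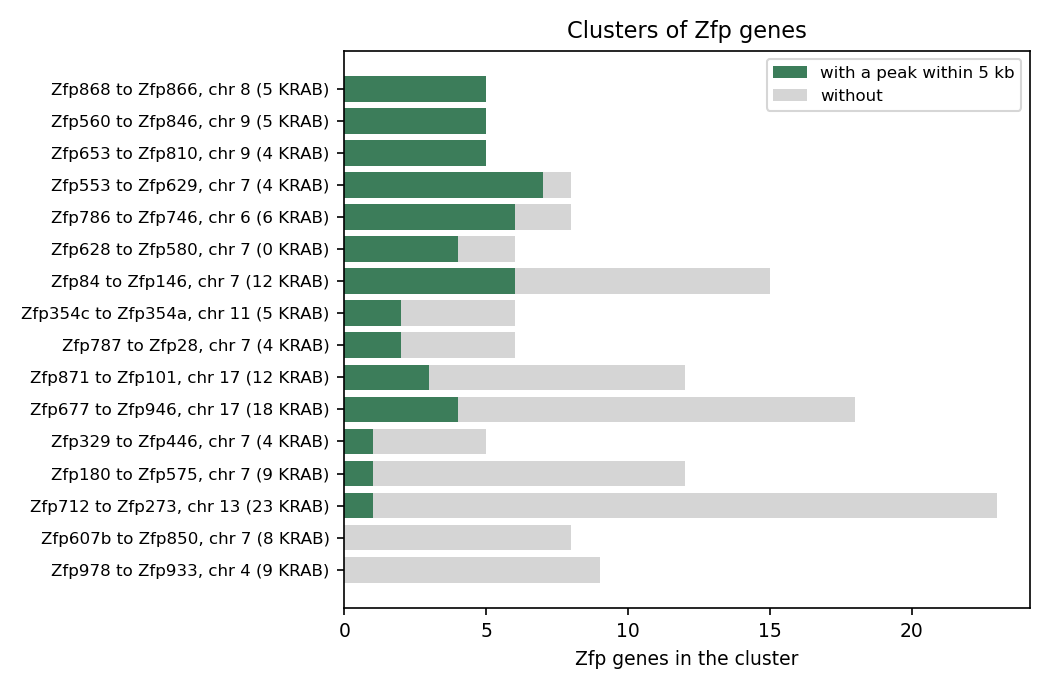
Number of Zfp genes with (green) and without (grey) an assigned Zeb1 peak within 5 kb of the TSS in 16 clusters, named by their first and last gene, with the chromosome and the number of KRAB genes. The clusters range from 5 of 5 genes at the top to 0 of 9 genes at the bottom.

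Genes were also grouped by known role. No gene in the lists of developmental, pluripotency, RNA and protein handling and chromatin genes had a KRAB domain by the profile. Of all Zfp genes without the domain 60% had a promoter peak, and of KRAB genes 31.5%, beside which the shares of the lists can be read. Among lineage and developmental regulators, 7 of 11 had a promoter peak (63.6%, against 45.1% of all coding genes), with a median enrichment of 9.23 for the highest such peak, against 6.84 over all coding genes with one. Zfp503, a repressor in striatal and limb development, had the highest enrichment of any Zfp promoter peak, 16.5, with 178 treatment and 22.6 input reads. This peak was 4500 bp long and was centred in an intron of the gene. Zfp703, a related repressor, had 226 treatment and 37.5 input reads and an enrichment of 12.3. Zfp423 and Zfp521 are paralogues with long finger arrays that act in neural and adipose lineages. Zfp423 had 6 peaks, and the one at its TSS, at chr8:87957001-87963300, was the longest of all Zfp peaks with 6300 bp and had the most treatment reads, 275, with 67.3 input reads and an enrichment of 9.23. Its other assigned peaks lay within the gene, 1 of them over the fingers, or 14980 bp upstream, and a peak assigned to another gene also overlapped its finger-coding sequence. Zfp521 had 1 peak with an enrichment of 10.2. Zfp536, a regulator of neuronal differentiation, had 140 treatment reads over 5300 bp and an enrichment of 7.56. The promoter peaks of Zfp516 and Zfp467 had enrichments of 7.2 and 6.06. Zfp488, Zfp366, Zfp469 and Zfp608 had no assigned peak, although the TSS of Zfp469 lay within 5 kb of a peak centre and a peak with an enrichment of 8.01 lay over its fingers.

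Among genes of pluripotency and the early embryo, 7 of 9 had a promoter peak (77.8%, against 45.1% of all coding genes), and their median was 5.7, against 6.84. Zfp143, an activator found at promoters and loop anchors, had the highest, 7.94. Zfp322a and Zfp296, which sustain the naive network, had 6.2 and 5.83, and Zfp296 had a further peak of 7.44 at 8338 bp downstream in the neighbouring gene. Zfp217 and Zfp706 had 5.7 and 5.64, and Zfp281, which acts in the transition from naive to primed cells, had 4.7. Zfp462, a partner of H3K9 methyltransferases, had promoter peaks of 4.9 and 3.85. Zfp352, a gene of the early cleavage embryo, had only peaks on LINE-1 elements, 87395 and 37295 bp upstream, with enrichments of 3.27 and 3.1. Zfp207 had no assigned peak.

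Of 7 KRAB silencers, 3 had a promoter peak (42.9%), a share near the 45.1% of all coding genes. Zfp57, which protects methylated imprinted loci, had an enrichment of 7.27 with 52 treatment and 15.1 input reads. Zfp568, which silences a placental Igf2 transcript, had 8.37, and Zfp809, which silences proviruses, had 6.44. Zfp445, Zfp819, Zfp932 and Zfp708 had no assigned peak and no peak centre within 5 kb of the TSS. The pathway that KRAB proteins recruit, outside the Zfp symbols, had a promoter peak in 11 of 16 genes (68.8%, against 45.1%), with a median of 6.74, against 6.84. Trim28, the corepressor that binds the KRAB domain, had 6.42 with 98.8 treatment and 32 input reads. The highest were Dnmt1, the maintenance DNA methyltransferase, with 9.63, and its partner Uhrf1, with 8.31. Setdb1, the H3K9 methyltransferase of the pathway, had no assigned peak, nor had Cbx3, Cbx5, Atrx and Daxx, of which Daxx had its TSS within 5 kb of the centre of a peak assigned to another gene.

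RNA and protein handling genes had a promoter peak in 7 of 9 (77.8%, against 45.1% of all coding genes), with a median of 5.94. Zfp36, which directs mRNA decay and has no C2H2 finger by the pattern used, had 3 peaks within 5 kb, with enrichments of 8.95, 5.47 and 5.25. Zfp346, which binds double-stranded RNA, had 7.92, and Zfp598, a ubiquitin ligase at stalled ribosomes, had 5.9. Zfp106 had the lowest, 3.6, and Zfp91 had no assigned peak, although its TSS lay in a peak with an enrichment of 4.88. The only peak of Zfp326, a splicing factor, lay 146757 bp downstream of its TSS on a LINE-1 element. Among chromatin partners 7 of 8 had a promoter peak (87.5%, against 45.1%), with a median of 6.14. Zfp64 and Zfp410, an activator of the nucleosome remodeller Chd4, had 11.3 and 10.4, Zfp335 had 6.8 and Zfp148 had 6.14. Zfp532, Zfp827 and Zfp592 had 5.75, 5.57 and 5.2, and Zfp687, a partner of Zfp592 and Zfp532, had no assigned peak.

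**Figure D5:**
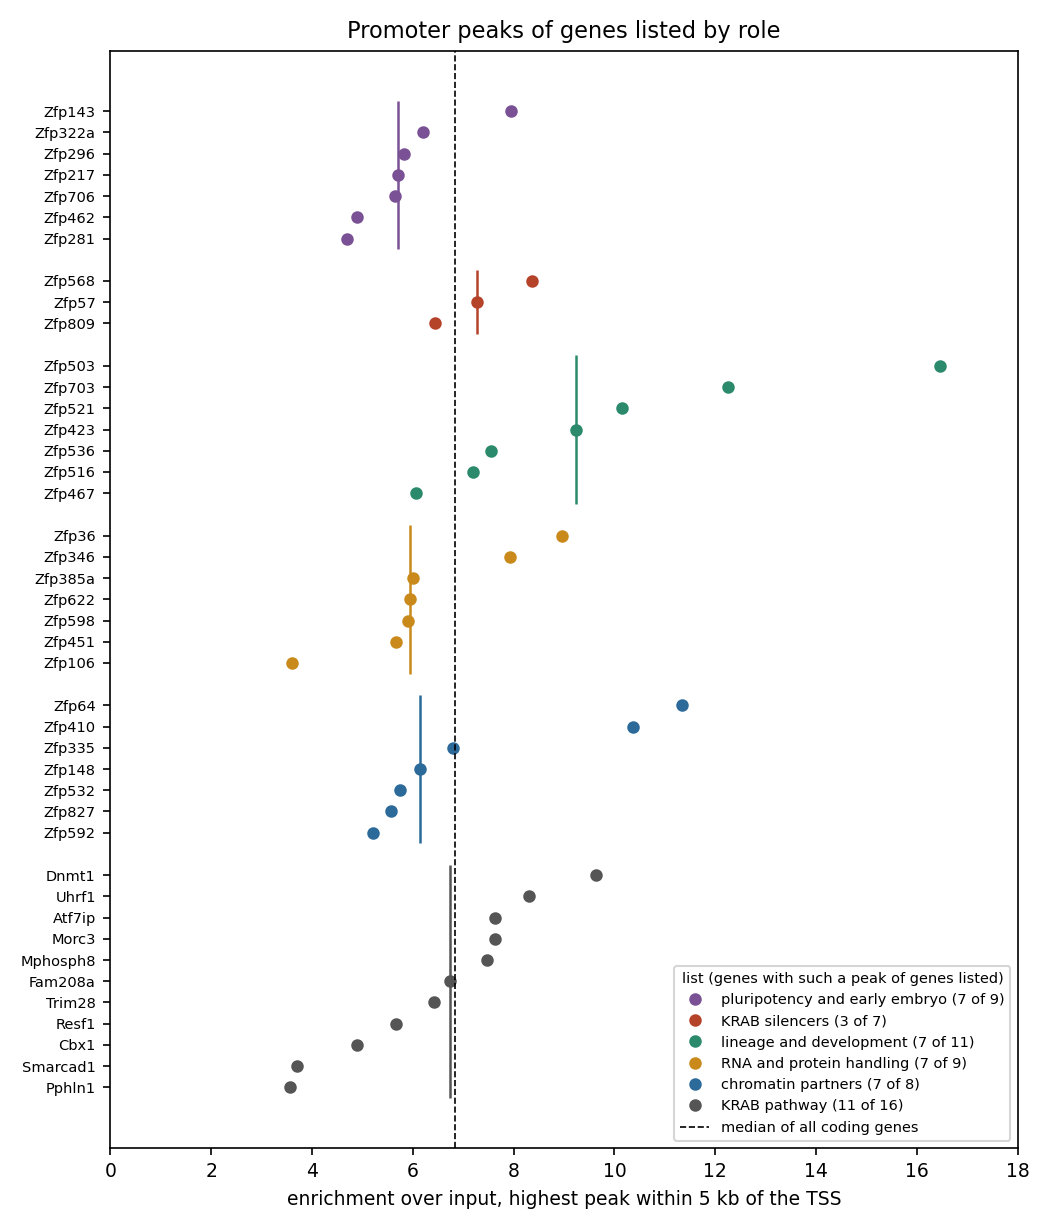
Enrichment over input of the highest Zeb1 peak within 5 kb of the TSS for each listed gene that has one, by role, with a vertical line at the median of each list and a dashed line at the median of all coding genes, 6.84. The list medians run from 5.7 for pluripotency genes to 9.23 for developmental regulators, with Zfp503 at 16.5 as the highest point.

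Beyond 5 kb from the TSS lay 109 Zfp peaks, with a median enrichment of 6.0, equal to that of the 6737 such peaks of the whole list. LINE-1 elements, the autonomous retrotransposons of the mouse, held 31 Zfp peaks (10.9%, interval 7.80 to 15.1%), against 14.2% of all peaks, and 17 of the 31 were of the L1Md_T family. Of the peaks beyond 5 kb, 20 of 56 of KRAB genes and 10 of 51 of other Zfp genes were centred on LINE-1 (35.7% and 19.6%), against 36.4% of all peaks beyond 5 kb, so that the KRAB share stood near that of the list. The 5 peaks beyond 5 kb with the highest enrichment were those of Zfp462, Zfp951, Zfp316, Zfp386 and Zfp523. Those of Zfp462, Zfp951 and Zfp386 lay on L1Md_T copies. Zfp462 had 27.4 treatment and 0.429 input reads at chr4:54446701-54448250, so that its enrichment of 44.7 rests on a very low input. That enrichment is a mean over libraries and not the ratio of these mean reads. Zfp951 had 53.7 and 6 reads and an enrichment of 19.4, and Zfp386 had 21.5 and 3 reads and an enrichment of 14. The peak of Zfp523 was centred in an intron of a neighbouring gene 11743 bp upstream, with 70.5 and 12.5 reads and an enrichment of 13.8. The 5 lowest enrichments lay on LINE-1 elements as well. They were 2.15 in Zfp958, 2.23 and 2.45 in Zfp936, 2.25 in Zfp157 and 2.37 in Zfp536, and Zfp157 had 92.5 treatment and 97.5 input reads. Zfp369, a KRAB gene with 5 peaks, had all of them between genes, 1 upstream and 4 downstream of its TSS, with enrichments from 3.63 to 9.07. The 4 peaks of Zfp428 lay within 10 kb of its TSS and had enrichments from 3.73 to 5.14.

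The Zeb1 motif was present in 195 of 284 Zfp peaks (68.7%, interval 63.0 to 73.8%), against 76.8% of all peaks. The share rose with length, and Zfp peaks were shorter at the median. In peaks of 1050 to 1500 bp it was 58.2% (57 of 98, interval 48.3 to 67.4%) against 65.3% of all peaks of that length, and from 1550 to 1850 bp it was 65.0% against 72.7%. From 1900 to 2350 bp it was 77.1% against 80.2%, and from 2400 bp upward 84.5% against 90.6%. Within 5 kb of the TSS the motif was in 44 of 76 KRAB peaks (57.9%) and 68 of 97 peaks of other Zfp genes (70.1%). The share of all peaks within 5 kb was 76.8%. These KRAB peaks were also shorter, at a median of 1500 bp against 1950 bp in other Zfp genes. The classes were not compared at equal length. The peaks of Zfp503 and Zfp703 with the highest enrichment held 0 matches in 4500 bp each.

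Zfp peaks were most numerous on chr7, chr8 and chr17, with 59, 38 and 25 peaks (20.8%, 13.4% and 8.8%, against 7.61%, 7.59% and 4.65% of all peaks). The same chromosomes hold 93, 24 and 45 of the 394 reference Zfp genes. On chr13, by contrast, 37 reference genes stood beside 14 peaks.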

How the data were processed

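Zeb1 ChIP-seq and input libraries were read on Ion Torrent. The authors trimmed reads, drew an equal number from each sample, aligned them to GRCm38 with STAR 2.4.2a keeping unique alignments, removed duplicates with Picard 1.136, called broad peaks against the input and unified them over libraries, with annotation by HOMER 4.7. The deposited read numbers are the authors' signal, a mean over libraries after factor normalization, and the deposited ratio is the mean enrichment over input, scaled by mapped reads. The deposited p-value is 0 in all 17435 rows and was not used. The deposited list gives no value per library and no library totals, so the aligned depth behind its values and the spread between replicates are unknown from it.

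Peaks were compared with RefSeq transcripts, promoter windows and sequence of GRCm38.p6, and all 284 members matched a reference gene by Entrez ID. Positive distances are downstream of the TSS: with that sign 251 of the 284 distances lay within 100 bp of the reference and with the opposite sign 3, although the legend of the list states the opposite. A promoter peak is a peak within 5 kb of the TSS of the gene it is assigned to in the list. Genes were joined by Entrez ID, so reference genes listed under older symbols count among the 394 genes but not among the members. KRAB domains were called in translated coding sequence with a profile built from 209 windows of 41 residues (E-value at most 0.001), and fingers with a pattern of cysteines and histidines. The profile replaced a plain pattern, and the finger pattern was widened because it missed Zfp143, after values had been seen. Uniqueness was the share of 50-base words found once in the reference. Shares have 95% Wilson intervals, which cover counting error only, and intervals of differences between shares combine them by the square-and-add rule. Intervals of medians come from order statistics over genes or peaks and are descriptions, since these are not replicates. Versions were pysam 0.24.0, pyhmmer 0.12.3, pandas 2.3.3, SciPy 1.17.1, NumPy 2.4.6, Matplotlib 3.10.9 and Python 3.11.15, and functions were tested on simulated data.

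Members and lists were chosen with earlier results of these data known. Apart from genes and clusters given as chosen after their values were seen, genes were named by a rule fixed before the values of the Zfp peaks were examined: the genes of the 5 Zfp peaks highest and lowest in enrichment, with the most treatment reads, the longest, and the highest beyond 5 kb, the genes with the most peaks, the 3 chromosomes with the most Zfp peaks, and lists by role. No test was run, since peaks and genes are not replicates. Alternatives changed the enrichment limit, the TSS distance, the gene assignment, the merging of peaks, the motif, the members and the KRAB and finger calls.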

Additional observations from a re-analysis of the deposited data

How the results depend on the processing

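Of 50 values of 12 results under 16 alternatives, 37 stayed within the interval of the reported value, or within 1.5 times for counts, 13 moved beyond it and 0 changed sign. Peaks with an enrichment of at least 5 gave a promoter peak in 31.0% of reference Zfp genes, a median enrichment of 7.2, 28.2 treatment and 7.93 input reads per kb and a median GC of 54.8%, by construction over fewer peaks (195). The share of Zfp peaks near the TSS was 52.8% within 1 kb and 68.3% within 10 kb. The median over genes of the highest peak was 6.66. The motif was in 48.6% of Zfp peaks on the forward strand, in 13.4% within 200 bp at the centre (16.7% of all peaks) and in 76.4% for the core CACCTG. Shares over all peaks are not given for the forward strand and the core. The 76.4% is therefore not comparable with the 76.8% of all peaks that held the full motif. The plain KRAB pattern, which misses KRAB genes, gave a difference of -17.0 points, and the peak centre gave 8.15% of genes with a peak over the fingers. The 5 alternatives for the KRAB call, the gene's own TSS, unique sequence and the finger-coding sequence were chosen after seeing the data. Values without each library could not be computed, because the list holds means over libraries. The same input served every peak, and reads of low input, such as the 0.429 at Zfp462, limit the precision of an enrichment.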

Other observations

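The list holds 11 peaks of 7 Zfp genes under older symbols that the rule does not take in. The highest of them, assigned to Gm14420, now Zfp970, lay 9167 bp upstream with 35.5 treatment and 2 input reads and an enrichment of 35.4. Those of Zfp267 and Zfp512b lay within 5 kb of the TSS, with enrichments of 10.3 and 6.66. These genes are named after their values were seen. Another 13 peaks carry symbols that begin with Zfp but do not follow the rule, and 1 peak is assigned to Zfp42. Of the reference Zfp genes, 18 had their own TSS within 5 kb of a peak centre but no promoter peak assigned to them.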
